A study of Mus musculus with 8 samples.

Results

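The genes of the hypoxia-inducible factor (HIF) pathway were examined in a mouse fibroblastic reticular cell (FRC) line, the stromal cell that builds the collagen network of a lymph node. The set comprised 43 genes, chosen by symbol: the HIF subunits, the enzymes that sense oxygen and mark HIF for destruction, and genes known as HIF targets in hypoxia. They were chosen with earlier results of these data known, so shares among them are no independent test. All 43 were among the 55367 genes of the count table. Of these, 41 had at least 10 counts in at least 3 libraries and were tested. Hif3a, which encodes a further HIF alpha subunit, and Pygl, the liver form of glycogen phosphorylase, had 0 counts in all 8 libraries, which allows up to 3 counts or 0.212 to 0.355 CPM, the counts of a gene scaled to its library's size after TMM scaling. The member nearest to the filter was Ak4, with 4 and 11 counts in the vehicle libraries, 8 and 9 in CCM, 3 and 9 in LA and 26 and 22 in TCM, so that it passed through 1 vehicle library and both TCM libraries.

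The 8 poly(A) libraries came from 4 groups of 2, which the study describes as biological replicates, and all FRCs were kept for 4 days in RPMI medium with 2% FBS. The TCM group received medium conditioned by B16.F10 melanoma cells, and its control, CCM, was medium conditioned by FRCs themselves. The LA group received medium with 15 mmol/L lactic acid, and its control, vehicle, had the same volume of water. All cells were of 1 line, derived from lymph nodes of C57BL/6 mice that carry the p53 ER/ER allele, so the values describe this line and not FRCs of several animals. The fibroblast transcripts Pdpn, Vcam1, Pdgfra, Pdgfrb, Col1a1 and Col3a1 were present in every library, whereas Thy1 had between 1 and 16 counts. Col1a2 was far lower than Col1a1, at 6.37 to 15.2 CPM beside 12572 to 17235 CPM. All 4 leukocyte markers were at 0 everywhere. The summed level of 6 melanoma markers was 1.90 and 1.64 CPM with TCM and 0.956 to 1.77 CPM in the other 6 libraries. Pmel, at 10 to 21 counts in every library, made up most of it, and the other 5 markers together had 8 and 5 counts with TCM (Tyrp1 6 and 3, Dct 1 and 1, Mlana 1 and 0, Sox10 0 and 1, Tyr 0 in both), 1 count in LA replicate 2 and 0 elsewhere. The summed level of 4 endothelial markers was 2.63 and 2.73 CPM with TCM and 3.19 to 6.38 CPM elsewhere, and that of 3 epithelial markers was 0.632 and 0.873 CPM with TCM and 1.77 to 4.53 CPM elsewhere. Their part in the results was not tested. Total counts per library were 8232889 to 14107964, and the TCM replicates differed most from each other (chi-square per degree of freedom 20.6, against 3.31 to 7.45 in the other groups). In bulk RNA, fewer cells that make a transcript and less of it per cell cannot be told apart.

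HIF is a pair of proteins, an alpha subunit (Hif1a or Epas1) and the constant partner Arnt. In the presence of oxygen the prolyl hydroxylases Egln1, Egln2 and Egln3 modify the alpha subunit, and the Vhl ubiquitin ligase then has it degraded. When oxygen, iron or 2-oxoglutarate is short, or when metabolites such as succinate or fumarate build up, the alpha subunit escapes, moves to the nucleus with Arnt and binds a short DNA element in promoters and enhancers. Its activity is therefore set mostly at the protein level, which RNA libraries do not measure, and is read from its targets. Among those targets are Egln1 and Egln3 themselves, which close a feedback loop, and genes for mitophagy, glycolysis, glycogen and collagen hydroxylation.

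With TCM, 18 of the 41 tested members changed against CCM: 14 were higher and 4 were lower (43.9%, against 19.1% of all 12137 genes tested). A gene was called when edgeR's quasi-likelihood test gave an adjusted P value under 0.05 over all tested genes and the log2 fold change (FC) went beyond 0.39. The members higher with TCM made up 34.1% of those tested, beside 8.83% of all genes, and the members lower made up 9.76%, beside 10.2%. The median log2 FC of the members was 0.02, beside 0.00 for all tested genes, and their range was −2.72 to 1.74. The 14 genes that rose were Egln1, Egln3, Bnip3, Fam162a, Higd1a, P4ha1, P4ha2, Kdm4b, Pfkfb4, Ak4, Ppp1r3b, Mxi1, Cited2 and Ankrd37, and the 4 that fell were Epas1, Ddit4, Ndrg1 and Stc1. Ak4 passed the count filter only with the help of both TCM libraries, in which it was high, and without it 17 of 40 members were called, 13 of them higher, with a median log2 FC of 0.00. Without TMM scaling, where the median log2 FC of all genes shifted to −0.14, the split became 12 higher and 6 lower, and 24.2% of all calls were higher in place of 46.3%. Leaving out CCM replicate 1 leaves 1 CCM library, and Epas1, Egln3, Higd1a, Kdm4b, Pfkfb4, Ak4, Ppp1r3b and Ankrd37 were then not called. All of these except Egln3 also lost their call in at least 1 other refit. Leaving out CCM replicate 2 was such a refit for Higd1a, Kdm4b, Pfkfb4, Ppp1r3b and Ankrd37. Calls over all genes fell as well when either CCM library was left out, so the loss was not particular to the members.

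With LA, 0 of the 41 members passed the same test against vehicle, beside 2.55% of all genes (1.31% higher and 1.24% lower). DESeq2 also called 0, and 7 members had an unadjusted P value under 0.05 in edgeR. Plod2, Gbe1, Stc1 and Ankrd37 were called lower with LA in at least 1 refit under other settings. All 4 were called when only the libraries compared were fitted, with the replicate number as a block. The log2 FC of the members ranged from −0.84 to 0.33, with a median of −0.04 beside −0.00 for all genes. CCM against vehicle likewise gave 0 calls among the members in edgeR, beside 1.3% of all genes (0.898% higher and 0.404% lower), with 8 members at an unadjusted P value under 0.05 and 2 called by DESeq2, Cited2 and Ankrd37. Leaving out either TCM library brought 2 members below vehicle with LA and 3 with CCM past the threshold, while the calls over all genes went from 310 to 617 for LA and from 158 to 497 and 494 for CCM.

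**Figure D1:**
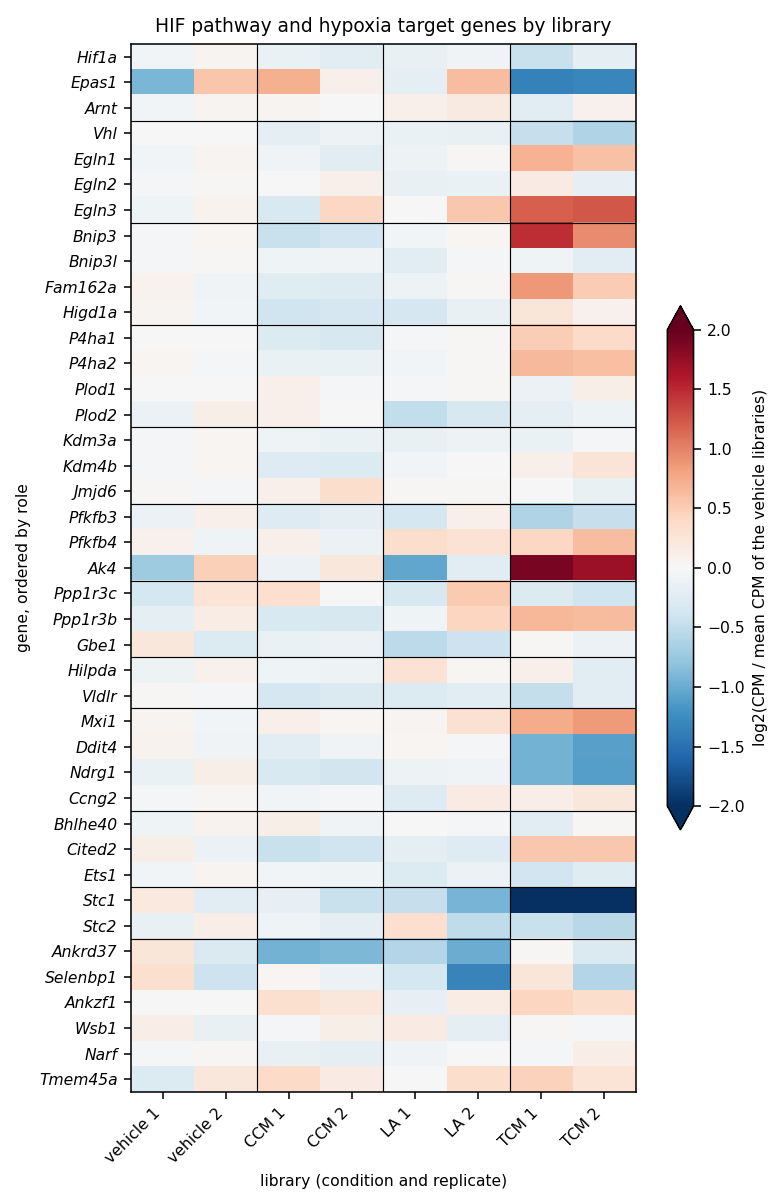
Level of the 41 tested members in the 8 libraries, as the log2 ratio of CPM to the mean CPM of the vehicle libraries, with colours cut at −2 and 2; rows are genes ordered by role and columns are libraries. Both TCM columns stand apart in the rows of Bnip3, Egln1 and Cited2 (higher) and of Ddit4, Ndrg1 and Stc1 (lower), and the fitted log2 FC of LA against vehicle stays within −0.84 to 0.33.

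The DNA element that HIF binds has the core ACGTG or GCGTG, and the promoters of the members that the comparison turns on were read for these letters. RefSeq (GRCm38.p6) gave a promoter for 34 of the 43 members, in 46 windows of 300 bases that run from 250 bases before the start of the transcript to 50 after it. Shown here are the 250 upstream bases, in the direction of transcription, of 5 members that were higher with TCM in every refit at the same fold threshold and of Ddit4, the member lower with TCM that had a promoter entry. P4ha2 and Mxi1 were also higher in every refit and are not shown. P4ha2 held 4 cores in its window of 300 bases, and the windows of Mxi1 held 0, 1 and 1. Capitals mark ACGTG and GCGTG read on either strand, so that on the strand shown the same cores can also appear as CACGT and CACGC, and a CACGTG palindrome reads ACGTG on both strands.
Bnip3: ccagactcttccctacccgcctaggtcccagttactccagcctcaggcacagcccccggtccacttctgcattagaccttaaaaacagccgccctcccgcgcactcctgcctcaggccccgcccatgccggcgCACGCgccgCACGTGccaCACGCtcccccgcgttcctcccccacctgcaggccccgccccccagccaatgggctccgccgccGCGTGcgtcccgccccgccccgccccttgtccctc
Fam162a: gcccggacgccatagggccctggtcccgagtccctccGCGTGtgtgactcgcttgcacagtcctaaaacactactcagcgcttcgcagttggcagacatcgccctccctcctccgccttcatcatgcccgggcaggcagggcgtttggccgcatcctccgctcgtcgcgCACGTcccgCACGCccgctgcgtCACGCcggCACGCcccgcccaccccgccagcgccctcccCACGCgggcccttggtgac
P4ha1: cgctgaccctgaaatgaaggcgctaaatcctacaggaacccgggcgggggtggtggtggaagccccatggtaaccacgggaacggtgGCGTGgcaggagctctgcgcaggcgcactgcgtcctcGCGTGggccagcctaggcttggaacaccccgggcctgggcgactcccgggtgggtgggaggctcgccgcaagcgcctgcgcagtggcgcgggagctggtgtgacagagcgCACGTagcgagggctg
Cited2: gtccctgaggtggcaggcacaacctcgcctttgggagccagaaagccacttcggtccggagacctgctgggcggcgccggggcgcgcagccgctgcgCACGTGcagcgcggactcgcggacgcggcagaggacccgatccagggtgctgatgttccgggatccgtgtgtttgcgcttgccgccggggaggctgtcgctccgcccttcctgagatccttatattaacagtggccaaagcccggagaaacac
Egln1: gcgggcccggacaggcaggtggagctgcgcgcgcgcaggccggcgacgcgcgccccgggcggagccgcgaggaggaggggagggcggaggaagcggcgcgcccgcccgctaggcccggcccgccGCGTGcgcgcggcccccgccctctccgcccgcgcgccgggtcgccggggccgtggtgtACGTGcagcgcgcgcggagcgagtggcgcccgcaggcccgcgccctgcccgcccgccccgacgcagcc
Ddit4: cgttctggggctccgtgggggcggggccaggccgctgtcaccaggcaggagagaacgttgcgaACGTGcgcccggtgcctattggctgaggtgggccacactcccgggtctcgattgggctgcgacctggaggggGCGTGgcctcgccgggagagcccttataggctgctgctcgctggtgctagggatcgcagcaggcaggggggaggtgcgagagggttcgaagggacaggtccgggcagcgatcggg
These stretches lie at chr7:138909507-138909756 (minus strand), chr16:36071562-36071811 (minus), chr10:59323046-59323295 (plus), chr10:17722978-17723227 (plus), chr8:124949255-124949504 (minus) and chr10:59951771-59952020 (minus).

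Bnip3 held 5 such cores, counting both strands of a CACGTG palindrome that began 108 bases before the start. Fam162a held 6, of which 5 were GCGTG. P4ha1 had 3, with the nearest 16 bases before its start. Cited2 and Egln1 had 2 each, those of Cited2 being both strands of 1 palindrome, and Ddit4, although lower with TCM, also had 2. Over the members with a promoter entry, ACGTG was present in 11 of the 12 that were higher with TCM (91.7%) and in 9 of the 19 that were not called (47.4%), beside 29.8% of the 9385 tested genes with a promoter and 21.8% of all 27025 genes of the promoter table. GCGTG was present in 75.0% of the 12, in 73.7% of the 19, in 57.1% of tested genes and in 35.2% of the table. Either core was present in 100% of the 12, in 84.2% of the 19, in 68.7% of tested genes and in 46.7% of the table. The palindrome CACGTG was present in 25% of the 12, in 26.3% of the 19 and in 11.9% of tested genes. Genes with several windows count as holding a core if any window does. The 12 include Ak4, which passed the count filter with the help of both TCM libraries, and Higd1a, whose ACGTG lies after the start. A match describes letters in this window and is neither a binding site nor a cause, and the 9 members with no entry were not searched.

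Among the HIF subunits, the alpha subunit Epas1 (HIF-2α) was the one that changed. Per kilobase of exon, Hif1a was the most abundant with vehicle (35.7 ± 1.96 CPM per kb, SD, n = 2), followed by Arnt (11.8 ± 0.626) and Epas1 (1.35 ± 0.895). Hif1a stood at 202 and 218 CPM with vehicle, 191 and 180.1 CPM with CCM, 190.0 and 200.4 CPM with LA and 154 and 184 CPM with TCM. Both TCM libraries were below both vehicle libraries, but they overlapped with CCM, and the difference from CCM was −0.13 in log2 FC (SE 0.106, adjusted P value 0.404). Arnt measured 90.6 and 97.7 CPM with vehicle, 98.1 and 93.9 CPM with CCM, 101 and 107 CPM with LA and 80.7 and 100.2 CPM with TCM, with overlap between TCM and CCM (log2 FC −0.09 with SE 0.113 and adjusted P value 0.636). Neither Hif1a nor Arnt was called for TCM, LA or CCM. With LA their log2 FC was −0.11 and 0.14.

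Epas1 was low and scattered between replicates, at 4.02 and 11.1 CPM with vehicle, 12.3 and 8.12 CPM with CCM, 6.62 and 11.6 CPM with LA and 2.95 and 3.06 CPM with TCM. Both TCM libraries were below all other libraries, while vehicle replicate 1 was nearer to TCM than to its own replicate. Epas1 fell with TCM (log2 FC −1.77 with SE 0.454 and adjusted P value 0.0176), and this call was lost when CCM replicate 1, TCM replicate 1 or TCM replicate 2 was left out. With LA it was not called (log2 FC 0.28 with SE 0.388 and adjusted P value 0.837).

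In the oxygen-sensing and degradation step, Egln1 and Egln3 rose with TCM, and Egln2 and Vhl did not pass. Egln1, the principal HIF prolyl hydroxylase in most cells (PHD2), stood at 104 and 112 CPM with vehicle, 103 and 93.5 CPM with CCM, 101 and 109.8 CPM with LA and 175 and 163 CPM with TCM. Both TCM libraries were above all the others. The rise over CCM had an adjusted P value of 0.000248 (log2 FC 0.78, SE 0.0972), while LA gave a log2 FC of −0.04 with an SE of 0.0976. Egln3 (PHD3) was far less abundant, 1.02 ± 0.0793 CPM per kb against 30.1 ± 1.51 for Egln1 with vehicle. It measured 2.57 and 2.87 CPM with vehicle, 2.19 and 3.63 CPM with CCM, 2.72 and 3.95 CPM with LA and 6.22 and 6.44 CPM with TCM, and rose with TCM (log2 FC 1.13 with SE 0.274 and adjusted P value 0.0134), with both TCM libraries above the rest. LA left Egln3 uncalled at a log2 FC of 0.33, with an SE of 0.301, and its LA libraries overlapped with vehicle.

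Egln2 (PHD1) measured 53.5 and 55.1 CPM with vehicle, 54.9 and 58.6 CPM with CCM, 48.9 and 49.5 CPM with LA and 61.0 and 48.5 CPM with TCM, and its TCM libraries lay on either side of the CCM libraries (log2 FC −0.05 with SE 0.119 and adjusted P value 0.800). Vhl, the substrate receptor of the ubiquitin ligase, had 48.7 and 49.4 CPM with vehicle, 43.4 and 45.6 CPM with CCM, 44.7 and 44.4 CPM with LA and 35.6 and 32.4 CPM with TCM. Both TCM libraries of Vhl were below the other 6, and its adjusted P value was 0.0211, but its log2 FC of −0.39 did not reach the fold threshold before rounding, so that it was not called. It was called lower in 3 of 17 refits, among them the one without TMM scaling.

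**Figure D2:**
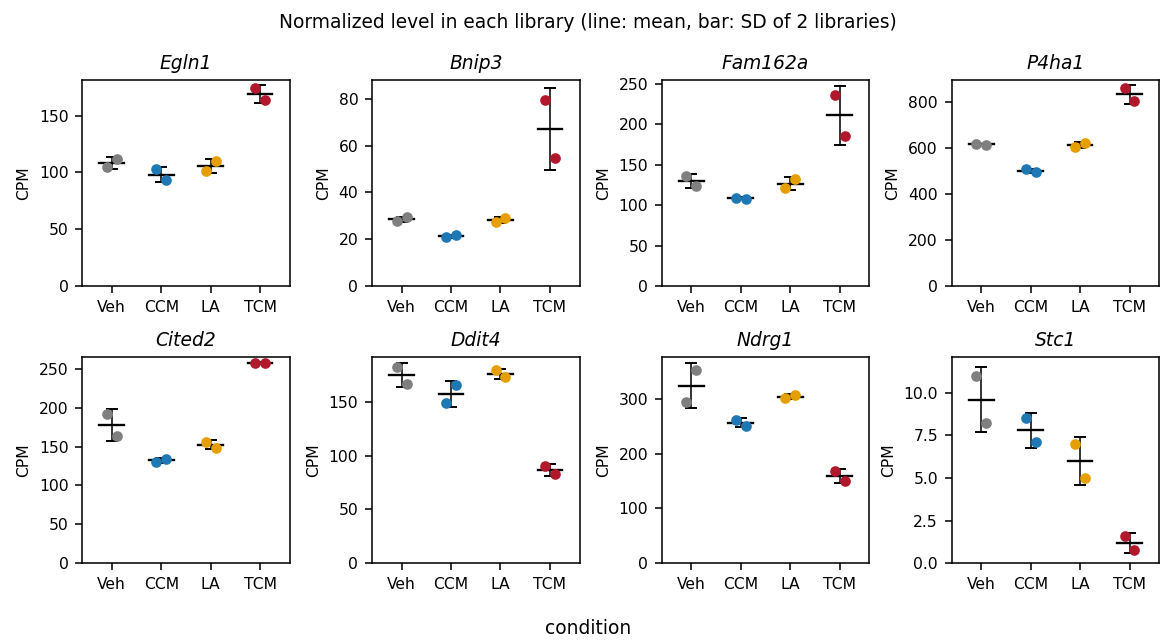
Level of 8 members (Egln1, Bnip3, Fam162a, P4ha1, Cited2, Ddit4, Ndrg1 and Stc1) in every library (CPM on linear axes that start at 0), by group; points are libraries and the lines and bars are the mean and SD of 2 libraries. The TCM points of the first 5 lie above all points of vehicle, CCM and LA, and those of the last 3 lie below them.

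In the mitochondrial group, 3 of 4 members rose with TCM, beside 8.83% of all genes, and the remaining one, Bnip3l, did not pass. Bnip3, an outer-membrane receptor that marks mitochondria for mitophagy, is the gene whose promoter held 5 cores, counting both strands of a palindrome. Its level was 27.7 and 29.3 CPM with vehicle, 20.8 and 21.8 CPM with CCM, 27.3 and 29.2 CPM with LA and 79.7 and 54.9 CPM with TCM. Each TCM library was well above the other 6, although the 2 TCM libraries differed from each other. Against CCM the log2 FC was 1.66 (SE 0.161, adjusted P value 5.84e-05). With LA it was −0.01 (SE 0.164). The CCM libraries were below both vehicle libraries (log2 FC −0.42, adjusted P value 0.304, not called here and called in 4 of 17 refits).

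Fam162a, a mitochondrial protein known to respond to hypoxia, had 136 and 123 CPM with vehicle, 109 and 108 CPM with CCM, 121 and 132 CPM with LA and 237 and 185 CPM with TCM. TCM was above every other library, and the log2 FC was 0.96 (SE 0.121, adjusted P value 0.000270). Higd1a, an inner-membrane protein that associates with the respiratory chain, was at 20.7 and 19.1 CPM with vehicle, 15.1 and 15.8 CPM with CCM, 15.7 and 17.9 CPM with LA and 23.6 and 21.1 CPM with TCM. Its rise over CCM was smaller (log2 FC 0.53 with SE 0.131 and adjusted P value 0.0143), and TCM replicate 2 exceeded the higher vehicle library by little. For Bnip3l, the close relative of Bnip3 with the same mitophagy role, the log2 FC with TCM was −0.08 (SE 0.0966, adjusted P value 0.609).

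Collagen-modifying enzymes came next. P4ha1 and P4ha2, the catalytic subunits of the prolyl hydroxylases that let collagen form a stable triple helix, were both higher with TCM, and the lysyl hydroxylases Plod1 and Plod2, which prepare collagen for cross-linking, did not pass. P4ha1 was abundant, at 616 and 614 CPM with vehicle, 507 and 495 CPM with CCM, 603 and 622 CPM with LA and 862 and 802 CPM with TCM. Both TCM libraries exceeded all others, and the CCM libraries were the lowest (log2 FC 0.73 with SE 0.0953 and adjusted P value 0.000334). P4ha2 had 117 and 111 CPM with vehicle, 103 and 103 CPM with CCM, 110.0 and 115 CPM with LA and 178 and 172 CPM with TCM, with no overlap between TCM and any other group (log2 FC 0.76 with SE 0.0874 and adjusted P value 0.000159). Neither subunit was called with LA, at log2 FC −0.01 for P4ha1 and −0.01 for P4ha2.

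Plod2 was the collagen enzyme with the lower values under LA, 363 and 427 CPM with vehicle, 426 and 394 CPM with CCM, 282 and 318 CPM with LA and 350.3 and 369 CPM with TCM. Both LA libraries were below both vehicle libraries, and the difference missed the threshold (log2 FC −0.40 with SE 0.112 and adjusted P value 0.0985). It was called lower in 5 of 17 refits. With TCM the log2 FC of Plod2 was −0.19 and that of Plod1 −0.02.

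Among the oxygenases that act on histones and RNA machinery, Kdm4b rose. Kdm4b, a histone lysine demethylase, stood at 55.1 and 58.6 CPM with vehicle, 47.4 and 47.2 CPM with CCM, 54.8 and 56.3 CPM with LA and 61.0 and 68.1 CPM with TCM (log2 FC 0.45 with SE 0.101 and adjusted P value 0.00949 for TCM). Its TCM libraries lay above both control groups. The change over CCM was near the fold threshold, and TCM replicate 1 exceeded the higher vehicle library by little. Kdm4b was not called in 5 of 17 refits, among them the one without TMM scaling. The demethylase Kdm3a and the hydroxylase Jmjd6 had log2 FC values of 0.02 and −0.30 and were not called.

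In energy metabolism, Pfkfb4 and Ak4 rose with TCM and Pfkfb3 did not pass. Pfkfb4, a bifunctional enzyme that sets the level of the main activator of phosphofructokinase, had 13.96 and 12.5 CPM with vehicle, 14.3 and 12.1 CPM with CCM, 16.9 and 16.2 CPM with LA and 17.6 and 20.2 CPM with TCM (log2 FC 0.51 with SE 0.144 and adjusted P value 0.0269). Its LA libraries were also above both vehicle libraries without a call (log2 FC 0.33, adjusted P value 0.344). Ak4, a mitochondrial adenylate kinase, was at 0.447 and 1.02 CPM with vehicle, 0.675 and 0.860 CPM with CCM, 0.355 and 0.635 CPM with LA and 2.74 and 2.40 CPM with TCM (log2 FC 1.74 with SE 0.400 and adjusted P value 0.0105). Its counts outside TCM were 3 to 11 per library, and it was not tested where 10 counts were required in every library. The 2 genes were no longer called by DESeq2, with adjusted P values of 0.0710 for Pfkfb4 and 0.0563 for Ak4. Pfkfb4 lost its call in 7 of 17 refits and Ak4 in 2 of 16. Pfkfb3, the relative that favours glycolysis most strongly, had a log2 FC of −0.30.

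For glycogen, Ppp1r3b, which brings protein phosphatase 1 to glycogen and favours its synthesis, rose from 5.31 and 5.26 CPM with CCM to 10.4 and 10.2 CPM with TCM, beside 5.81 and 7.31 in the vehicle and 6.15 and 8.82 in the LA libraries (log2 FC 0.96 with SE 0.211 and adjusted P value 0.00821). The TCM libraries were above all others. Ppp1r3c, the other glycogen-targeting subunit, and the branching enzyme Gbe1 were not called, at log2 FC −0.52 (SE 0.289) and 0.08 (SE 0.173). Of the lipid members, Hilpda, which holds back the breakdown of lipid droplets, and the lipoprotein receptor Vldlr had log2 FC values of 0.04 and −0.03 with TCM, and neither passed.

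The members that restrain growth split in direction. Mxi1, an antagonist of Myc, measured 25.7 and 24.0 CPM with vehicle, 26.6 and 25.4 CPM with CCM, 25.8 and 30.8 CPM with LA and 41.6 and 44.9 CPM with TCM, and both TCM libraries were above the other 6 (log2 FC 0.73 with SE 0.119 and adjusted P value 0.00146). Ddit4 (REDD1), an inhibitor of mTORC1 that stress and hypoxia are known to induce, went the other way, at 183 and 167 CPM with vehicle, 149 and 166 CPM with CCM, 179 and 173 CPM with LA and 90.7 and 82.8 CPM with TCM. The TCM libraries of Ddit4 were below every other library, with a log2 FC of −0.86 (SE 0.100, adjusted P value 0.000176), and LA gave 0.01 (SE 0.0978).

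Ndrg1, a stress-responsive gene known to be induced by hypoxia, also fell, with 295 and 353 CPM with vehicle, 262 and 251 CPM with CCM, 301 and 308 CPM with LA and 168 and 150.2 CPM with TCM. Here too the TCM libraries did not overlap with any others (log2 FC −0.69 with SE 0.109 and adjusted P value 0.00116). The cyclin Ccng2 had a log2 FC of 0.21 (SE 0.133) and was not called, although both its TCM libraries were above both CCM libraries.

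Cited2, which competes with HIF alpha for the coactivators CBP and p300, was the transcription regulator that rose. Its level was 192 and 163 CPM with vehicle, 130.0 and 134 CPM with CCM, 156 and 148 CPM with LA and 258 and 258 CPM with TCM. TCM was highest and CCM lowest, with vehicle and LA between them. Against CCM the log2 FC was 0.96 (SE 0.0997, adjusted P value 8.26e-05). CCM against vehicle gave a log2 FC of −0.43 with an adjusted P value of 0.0624, which missed the threshold but was called in 7 of 17 refits. Bhlhe40, a repressor induced by HIF, and the factor Ets1 were not called, at −0.12 and −0.25 in log2 FC.

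Among secreted members, Stc1 had the widest difference of the set. Stc1 encodes stanniocalcin-1, a glycoprotein hormone of mineral balance. It stood at 10.9 and 8.23 CPM with vehicle, 8.52 and 7.07 CPM with CCM, 6.98 and 5.01 CPM with LA and 1.58 and 0.764 CPM with TCM, which is 15 and 7 counts in the TCM libraries. All other libraries were above TCM, and Stc1 fell with TCM (log2 FC −2.72 with SE 0.342 and adjusted P value 0.000270). Both LA libraries were also below both vehicle libraries, at a log2 FC of −0.70 that was not called (SE 0.248, adjusted P value 0.204), except in 1 of 16 refits. Stc2 had a log2 FC of −0.37 with TCM and was not called.

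Among the members that rose, Ankrd37, an ankyrin-repeat protein counted among the HIF targets, was the only one whose TCM and vehicle libraries overlapped. It measured 20.7 and 14.2 CPM with vehicle, 9.02 and 9.37 CPM with CCM, 11.6 and 8.82 CPM with LA and 17.8 and 14.3 CPM with TCM. TCM was above CCM (log2 FC 0.81 with SE 0.212 and adjusted P value 0.0204) but overlapped with vehicle, and both CCM and LA were below vehicle. The last 2 differences were −0.91 (SE 0.210, adjusted P value 0.0611) and −0.79 (SE 0.209, adjusted P value 0.0808) in log2 FC. Neither was called here, but Ankrd37 was called lower in 8 of 17 refits for CCM and in 6 of 17 for LA. The remaining members of this group, Selenbp1, Ankzf1, Wsb1, Narf and Tmem45a, were not called. The lowest LA value of the set, −0.84 for Selenbp1, came with an SE of 0.447 from 11 to 24 counts per library and an adjusted P value of 0.446. All 23 members not called with TCM had log2 FC values between −0.52 and 0.23.

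**Figure D3:**
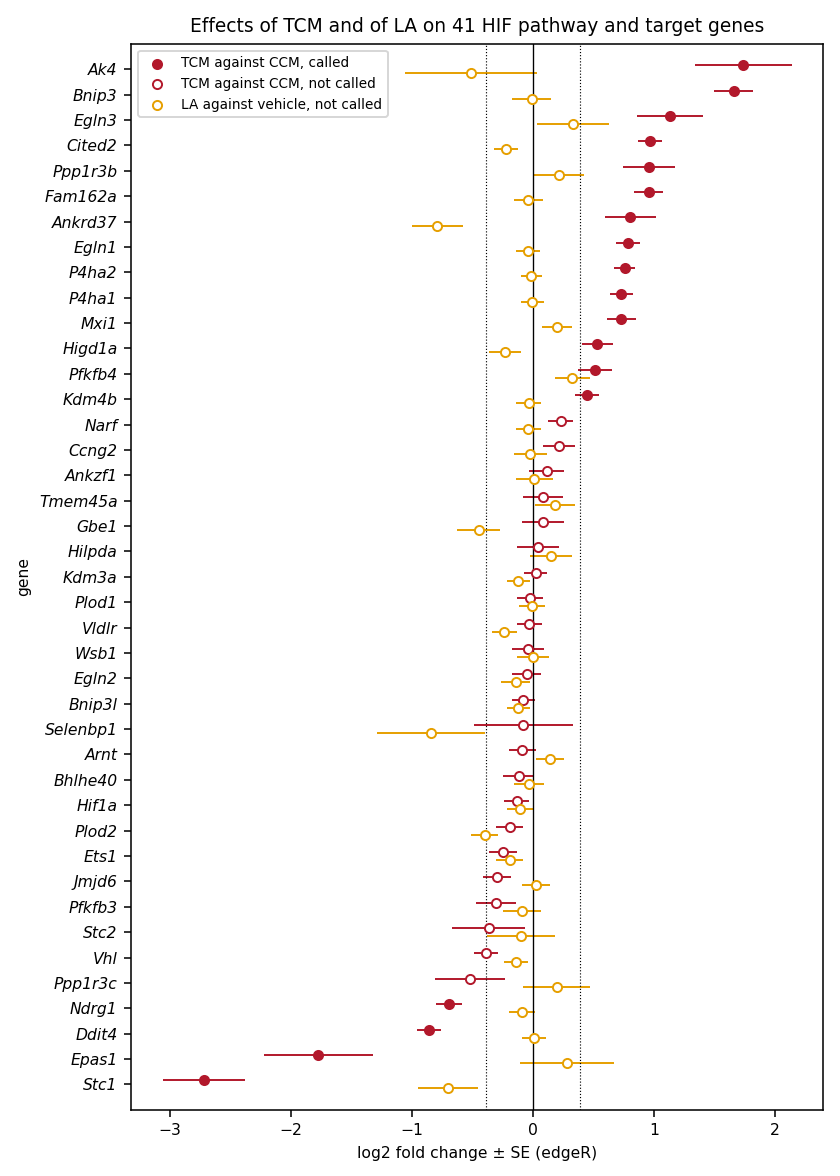
Log2 FC of the 41 tested members for TCM against CCM and LA against vehicle, with bars of 1 SE from the fit and dotted lines at the fold threshold of 0.39; filled points were called and open points were not. TCM values span −2.72 to 1.74 with 18 filled points, and LA values span −0.84 to 0.33 with none.

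CCM, the control of TCM, was also set against vehicle. In 21 of the 41 members both CCM libraries were below both vehicle libraries, beside 24% of all tested genes, and in 2 members both were above, beside 25.8%. The median log2 FC of CCM against vehicle was −0.10 for the members and 0.00 for all genes. Of the 14 members that were higher with TCM, 10 had CCM below vehicle in this way. Its part in the TCM differences was not tested. Of the 14, 13 (all except Ankrd37) had both TCM libraries above both vehicle libraries, and the 4 that fell had both TCM libraries below both vehicle libraries. The gap was small for Higd1a (mean 19.9 CPM with vehicle and 22.3 with TCM) and Kdm4b (56.9 and 64.6). These members were picked for a difference between TCM and CCM, which favours low CCM and high TCM libraries among the 14 and the reverse among the 4. Their counts against vehicle are therefore partly fixed by that choice and are no test. Over all 41 members, TCM was above vehicle without overlap in 16 (27.4% of all genes) and below in 11 (28.1%). Against CCM, both TCM libraries were above both CCM libraries in 17 members (27.8% of all genes) and below in 12 (30.5%). For LA against vehicle, 4 members were above without overlap (23.7% of all genes) and 13 were below (24.2%).

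Whether the TCM effect over CCM differed from the LA effect over vehicle was tested for each member. A CCM level below vehicle raises this difference, so it does not compare TCM with LA directly. This difference was called for 11 of the 41 members, 8 with the higher value under TCM and 3 with the lower, beside 10.4% of all genes (4.45% higher and 6% lower). The 8 were Bnip3 (difference in log2 FC 1.67, SE 0.230, adjusted P value 0.000892), Cited2 (1.19), Ankrd37 (1.59), Fam162a (1.00), Egln1 (0.82), P4ha2 (0.77), Higd1a (0.77) and P4ha1 (0.74). The 3 were Stc1 (−2.01, SE 0.439, adjusted P value 0.0139), Ddit4 (−0.87) and Ndrg1 (−0.60). Over these 11, the log2 FC of CCM against vehicle ran from −0.91 (Ankrd37) to −0.14 (P4ha2). All 11 were among the 18 called with TCM. The other 7, Epas1, Egln3, Kdm4b, Pfkfb4, Ak4, Ppp1r3b and Mxi1, were called with TCM and not with LA, but a difference between both effects was not called for them in this fit. In refits it was called for Epas1 (7 of 15, DESeq2 among them), Kdm4b (3 of 15), Ak4 (2 of 14) and Mxi1 (2 of 15). For Epas1 the difference was −2.06 (SE 0.601, adjusted P value 0.0531) and for Ak4 2.25 (SE 0.688, adjusted P value 0.0622).

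Other genes of the pathway, from a list of regulators and commonly cited targets outside the 43, were read in the same fit. Like the 43, this list was chosen with earlier results of these data known, so its shares are no independent test. Of these, 37 were listed and 34 passed the count filter. With TCM, 14 were called higher (8.83% of all genes were) and 1 lower (10.2% of all), with a median log2 FC of 0.30 beside 0.00 for all genes. The targets accounted for 13 of the 14, out of 22 tested, with 0 lower and a median of 0.71. Examples are Pdk1, the kinase that closes the entry of pyruvate into mitochondria (37.0 and 34.5 CPM with CCM and 97.3 and 107 CPM with TCM, a log2 FC of 1.51 with SE 0.105 and adjusted P value 1.34e-05), and Slc2a1, the glucose transporter (0.45, adjusted P value 0.0120). Vegfa, the angiogenic factor most often used to read HIF activity, was not called, with 94.1 and 91.0 CPM in CCM and 95.1 and 105 CPM in TCM (log2 FC 0.11 with SE 0.146 and adjusted P value 0.623). Of the 12 regulators, Rack1, a scaffold protein, rose (0.48, adjusted P value 0.0279) and Siah2, a ubiquitin ligase for the prolyl hydroxylases, fell (−0.52, adjusted P value 0.0114).

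With LA, 2 of these 34 genes were called (2.55% of all genes were) and both were lower, the heme-degrading enzyme Hmox1 (−0.64, adjusted P value 0.0193) and the growth-factor binding protein Igfbp3 (−1.46, adjusted P value 0.000532). That the effects of TCM and LA differed was called for 13 of the 34 (10.4% of all genes, 4.45% higher), all with the higher value under TCM and all targets. They are not the same 13 targets that rose with TCM. Igfbp3 is among them with a TCM log2 FC of −0.11, not called, beside its fall with LA. Slc16a3 rose with TCM (1.57), but its difference of 0.39 was not called.

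**Figure D4:**
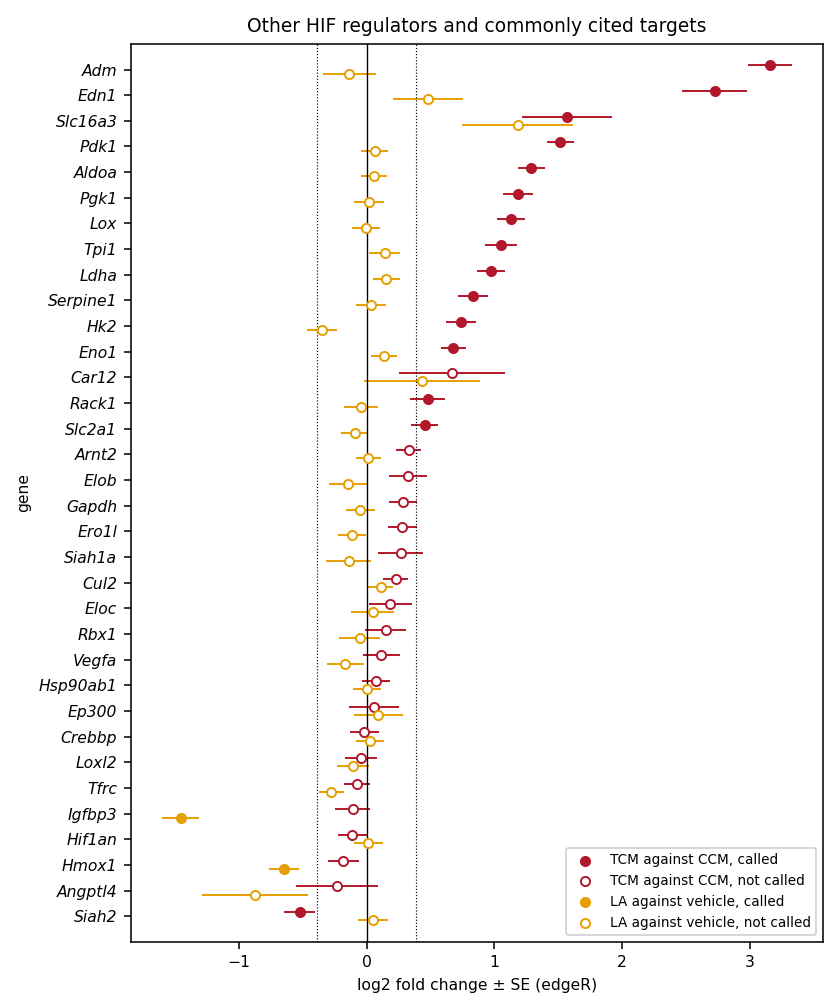
Log2 FC of 34 further HIF pathway genes, regulators and targets, for TCM against CCM and LA against vehicle, with bars of 1 SE; filled points were called. With TCM 14 points are filled on the higher side and 1 on the lower, and with LA 2 are filled, both on the lower side.

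Several members share their place in the genome with other genes. The strand setting of the counting was not given, so how reads of overlapping genes were assigned is not known. In GENCODE M21 on GRCm38, 9 of the 18 members called with TCM overlapped another annotated gene and 9 did not. Those free of overlap were Egln1 (chr8:124908587-124949324), Egln3 (chr12:54178981-54203860), P4ha1 (chr10:59323296-59373304), P4ha2 (chr11:54100095-54131665), Kdm4b (chr17:56326062-56402870), Pfkfb4 (chr9:108991778-109032228), Ak4 (chr4:101419277-101466995), Ddit4 (chr10:59949669-59951834) and Cited2 (chr10:17723218-17725674). Bnip3 (chr7:138890836-138909519) overlapped Gm45507 and Gm18258, Fam162a (chr16:36043761-36071594) overlapped Wdr5b, and Ankrd37 (chr8:45996902-46005707) overlapped Ufsp2 and Lrp2bp, in each case on the opposite strand. Higd1a, Ppp1r3b, Mxi1, Ndrg1 and Stc1 also had a partner on the opposite strand, and Epas1 had one on its own strand. Overlap was read over whole gene spans, introns included, and shared exons were not examined. What the partners contribute to the values of these 9 was not tested.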

How the data were processed

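Poly(A) RNA of 8 FRC libraries, 2 for each of 4 groups, was analysed. The authors aligned directional reads to GRCm38 with STAR 2.7.0a, counted them per gene with featureCounts (Subread 2.0.1) on Ensembl release 100 and deposited raw counts, with versions as in the submitters' processing notes, which also name DESeq2 1.32.0. The strand setting is not given in the sources used here. A second deposited table, normalized by its name, holds the same counts for 12137 genes (100% of values equal) and was not used further. No column was left unused (0).

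Groups were taken from the sample labels. The 43 members, the further HIF list and the markers were chosen with earlier results of these data known. The filter kept 12137 genes that reached 10 counts in 3 or more libraries. They were scaled with TMM factors (0.938 to 1.04) and fitted with edgeR 4.0.16 in R 4.3.3 (quasi-likelihood, robust, 1 mean per group, all 8 libraries), with Benjamini-Hochberg adjustment over all tested genes. Calls needed both an adjusted P value under 0.05 and, after the study's methods, a change of more than 0.39 in log2. TCM was set against CCM, LA against vehicle and CCM against vehicle, and the TCM effect was set against the LA effect. SE is the log2 FC divided by the square root of F. CPM use TMM-scaled sizes of the tested genes, and SD is over 2 libraries. With 2 libraries against 2, an exact permutation test cannot go below P = 0.333, so single-gene P values come from the fit across genes. The fit was tested on simulated data.

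Members called in a comparison and the HIF machinery (Hif1a, Epas1, Hif3a, Arnt, Vhl, Egln1, Egln2, Egln3) are given with values per library, and others by range or short example. Total counts were 8232889 to 14107964, and a floor of 3 counts covers counting error only, since no molecular identifiers were used. Alternatives were DESeq2 1.42.0, its size factors, no TMM factors, other filters and fold thresholds, only the libraries compared, a replicate block, and each library left out. Promoters are RefSeq windows on GRCm38.p6, and gene positions are from GENCODE M21.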

Additional observations from a re-analysis of the deposited data

Results flagged for a closer look

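For 11 members the effect of TCM over CCM differed from the effect of LA over vehicle in edgeR's test of that difference, with adjusted P values over all 12137 genes from 0.000312 (Cited2) to 0.0289 (Ndrg1). The difference in log2 FC was 1.67 for Bnip3, 1.59 for Ankrd37, 1.19 for Cited2, 1.00 for Fam162a, 0.82 for Egln1, 0.77 for P4ha2, 0.77 for Higd1a and 0.74 for P4ha1. It was −2.01 for Stc1, −0.87 for Ddit4 and −0.60 for Ndrg1. In Ankrd37 the difference combined a TCM value of 0.81 with an LA value of −0.79, whereas in Bnip3 the LA value was −0.01 and in Ddit4 0.01. CCM against vehicle enters each difference, and over the 11 its log2 FC ran from −0.91 (Ankrd37) to −0.14 (P4ha2). Of the 11, 8 were called in all 15 refits at the same fold threshold, and Higd1a, Ndrg1 and Stc1 were lost in at least 1.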

How the results depend on the processing

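With 2 libraries per group, single libraries decided some calls. Of the 18 members called with TCM, 10 were called in every refit at the same fold threshold that tested them (Egln1, Bnip3, Fam162a, P4ha1, P4ha2, Mxi1, Cited2, Ddit4, Ndrg1 and Stc1) and none reversed. The other 8 lost their call in 7 of 17 refits (Pfkfb4), 5 (Kdm4b), 3 (Epas1 and Ankrd37), 2 (Higd1a and Ppp1r3b), 1 (Egln3) and 2 of 16 (Ak4). Leaving out 1 library at a time gave 10 to 18 calls for TCM, 0 to 2 for LA, 8 to 14 for the difference between both effects and 0 to 3 for CCM against vehicle, where the 2 for LA and the 3 came when either TCM library was left out. The fewest TCM calls came without CCM replicate 1, where calls over all genes fell as well. At a log2 FC beyond 1, the TCM count was 5 and that of the difference 4. DESeq2 called 16 with TCM and 2 in CCM against vehicle, and without a filter on low counts 2 members were called with LA and 2 in CCM against vehicle. Fitting only the libraries compared gave 3 for CCM against vehicle.

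Replicate numbers are shared by label only. The correlation of same-numbered deviations was 0.420 between vehicle and LA, 0.146 between vehicle and TCM, 0.142 between LA and TCM and −0.318 between CCM and TCM, with −0.0992 between CCM and LA and −0.0671 between vehicle and CCM. Since not every pair was above 0.1, the numbers were not taken to pair the samples, although the value for vehicle and LA was positive. A replicate block gave 18 calls for TCM, 1 for LA (Ankrd37, lower) and 1 for CCM against vehicle (Ankrd37, lower), and the block with only the libraries compared gave 16, 4 (Plod2, Gbe1, Stc1 and Ankrd37, lower) and 3. With the CCM numbers crossed, a pairing chosen after seeing the data, the counts were 18, 2 and 2.

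Values that changed sign were uncalled in both fits, each with 1 library left out. For TCM, Arnt ran from −0.25 to 0.062, the latter without TCM replicate 1, and Egln2 from −0.23 to 0.11, the latter without TCM replicate 2. For LA, Epas1 ran from −0.24 (without vehicle replicate 1; −0.22 without LA replicate 2) to 1.23, Egln1 from −0.10 to 0.019 (without LA replicate 1, and 0.014 without vehicle replicate 2) and Egln3 from −0.00409 (without LA replicate 2) to 0.53. The causes were not tested.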
